A study of Mus musculus with 12 samples.

Results

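The genes that drive DNA replication and cell division were examined in 12 mouse liver arrays, 2 in each of 6 groups, from a study of KK-Ay and KK mice. The list held 46 genes, taken by name, and 44 of them were measured among the 19938 genes of the series. A member's value was that of its transcript cluster (the set of probes for 1 gene) with the highest mean over the 12 arrays, among clusters that carry exactly 1 gene symbol. Ccnb1, which encodes the mitotic cyclin B1, had no cluster under its symbol. The only cluster for Cdkn1a, which encodes the cyclin-dependent kinase inhibitor p21, carried a second symbol, so neither gene has a value here.

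KK-Ay mice (KK.Cg-Ay/J) carry the yellow agouti allele A-y on the KK background and become obese and diabetic. KK mice share that background without the allele. The KK-Ay arrays were titled 6Y, 16Y and 42Y, and the other arrays were titled 1 (1-3 and 1-5), 6K and 42WKK (A and B). Animals of 42 weeks are named in the methods, but whether the other title numbers are weeks, and which strain group 1 belongs to, no source says. None of them says that the 2 arrays of a group came from separate mice. The p-values therefore measure only the spread between these arrays, which may be technical. The series design text places 6Y, 16Y and 42Y in the type 2 diabetes (T2D) group and 1, 6K and 42WKK in the control group. The records of single arrays put 6K with T2D and 42Y with the controls, so the genotype was checked in the data. The A-y allele joins agouti to the promoter of its neighbour Raly and removes parts of Raly and Eif2s2. The log2 signal of agouti (a) lay between 6.78 and 7.06 in the 6 Y arrays and between 5.20 and 5.51 in the 6 other arrays, 6K included. Raly lay between 6.59 and 6.81 in the Y arrays and between 7.21 and 7.73 in the others. Eif2s2 had 2 clusters. One lay between 5.68 and 6.24 in the Y arrays and between 6.34 and 6.92 in the others. The second lay between 7.20 and 7.67 and between 8.15 and 8.88. These genes put 6K on the side of the controls and 42Y on the side of the A-y carriers, as the design text has them. The sample records name blood leukocytes as the tissue and the methods name liver. The log2 of the summed linear signal of 11 hepatocyte markers lay between 16.46 and 16.65 over all arrays, and that of 8 T cell markers between 7.37 and 7.70. All signals are log2 values, so a difference of 1 is a doubling on the linear scale, and n = 2 arrays in each group throughout.

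A cell enters the cycle when D-type and E-type cyclins switch on their kinases, which release the E2F transcription factors from the retinoblastoma proteins. E2F target genes then supply the MCM helicase, the replication fork and deoxynucleotides for S phase. A later wave of genes, driven by B-MYB and FOXM1 with the MuvB complex and held down by the DREAM complex in resting cells, makes the kinases, kinetochore and spindle proteins of mitosis. Most hepatocytes of adult liver rest outside the cycle and can enter it again when tissue is lost, so these genes are usually weakly expressed there.

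The regulatory sequences that join these genes are short elements close to the gene start. Shown here, because they belong to the members whose signal fell in a comparison below and that have a promoter in the RefSeq table, are the 200 bases upstream of the annotated start of 6 genes (RefSeq, build GRCm38.p6, 5' to 3' on the gene's own strand). Mcm5, E2f8 and Top2a were called only in the comparison that was added after the values by array had been seen. Capitals mark the letters TTTGAA (the cell cycle genes homology region, CHR), CCAAT (the CCAAT box) or an E2F element (TTCCCGC or its variant forms TTGGCGC and also TTCGCGC and likewise TTGCCGC), on either strand.
Rrm1, chr7:102441495-102441694, plus strand: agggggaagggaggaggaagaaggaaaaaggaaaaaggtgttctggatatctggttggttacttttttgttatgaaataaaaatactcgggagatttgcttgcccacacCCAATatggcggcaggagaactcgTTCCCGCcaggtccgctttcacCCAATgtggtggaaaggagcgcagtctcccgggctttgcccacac
Mcm2, chr6:88898781-88898980, minus strand: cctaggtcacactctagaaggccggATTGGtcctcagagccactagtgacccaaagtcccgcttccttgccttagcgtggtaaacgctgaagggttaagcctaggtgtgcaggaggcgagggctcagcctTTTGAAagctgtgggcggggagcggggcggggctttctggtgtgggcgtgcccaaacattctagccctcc
Mcm5, chr8:75109309-75109508, plus strand: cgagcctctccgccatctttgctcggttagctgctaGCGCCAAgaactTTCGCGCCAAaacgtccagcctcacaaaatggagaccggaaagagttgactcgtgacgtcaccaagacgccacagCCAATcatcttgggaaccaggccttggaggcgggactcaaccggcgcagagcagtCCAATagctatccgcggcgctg
Mcm7, chr5:138171884-138172083, minus strand: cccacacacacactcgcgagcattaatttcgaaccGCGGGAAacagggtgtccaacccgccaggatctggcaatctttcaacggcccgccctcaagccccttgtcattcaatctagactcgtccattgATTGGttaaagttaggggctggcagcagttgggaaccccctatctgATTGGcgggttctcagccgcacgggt
E2f8, chr7:48881597-48881796, minus strand: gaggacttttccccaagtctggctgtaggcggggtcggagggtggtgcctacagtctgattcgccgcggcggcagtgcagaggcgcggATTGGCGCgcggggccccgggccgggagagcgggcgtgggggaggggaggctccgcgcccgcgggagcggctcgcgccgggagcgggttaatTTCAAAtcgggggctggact
Top2a, chr11:99024190-99024389, minus strand: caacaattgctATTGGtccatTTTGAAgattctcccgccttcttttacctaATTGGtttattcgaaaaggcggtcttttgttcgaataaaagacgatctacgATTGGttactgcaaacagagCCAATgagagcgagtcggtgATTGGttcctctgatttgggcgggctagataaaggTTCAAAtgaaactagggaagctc
Rrm1, Mcm5 and Mcm7, which act in S phase, held an E2F element and a CCAAT box but no CHR in these windows. Mcm2, which acts in S phase too, held a CCAAT box and 1 CHR match, at position -70, and no E2F element. Top2a, which acts in mitosis, held 5 CCAAT boxes and 2 CHR matches, at positions -179 and -23 from the start, and no E2F element. E2f8 held 1 match to each motif, and its CCAAT box and E2F element overlapped. In Mcm5, 2 of the 3 E2F matches overlapped each other. Over the 250 bases upstream of the start, a CCAAT box was found in 27 of the 37 member promoters in the table (73.0%) and in 34.5% of all 27025 promoters. An E2F element was found in 10 members (27.0%) and in 7.97% of all promoters, and a CHR in 10 members (27.0%) and in 16.3% of all promoters. These matches describe the letters in the windows and not binding, and Ccnd1, Ccne2, Ccna2, Foxm1, Mcm4, Cdc25c, Aurkb, Kif20a and Tpx2 were not in the table.

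Most members had their highest array in 6Y or 6K. This held for 37 of the 44 measured members, among them 20 in 6Y-1 and 11 in 6K-1. By array, the members had a median log2 signal of 4.97 and 4.67 in 6Y, 4.35 and 4.55 in 16Y, 4.38 and 4.33 in 42Y, 4.43 and 4.33 in group 1, 4.82 and 4.52 in 6K, and 4.35 and 4.29 in 42WKK. The first array of 6Y and of 6K stood above every other array, while 6K-2 lay just below 16Y-2. The 6Y mean and the 6K mean both exceeded each other group mean in 23 members, and 42Y had the lowest group mean in 18. In 6 members (Ccnd1, Mcm3, Mcm5, Mcm7, Top2a and Tpx2) all 4 arrays of 6Y and 6K lay above the 8 other arrays, which 2.64% of all clusters did. No member had these 4 arrays below the other 8, which 1.19% of all clusters did. These counts were made after the values by array had been seen and carry no test. The share over all clusters was not counted for the highest arrays or for the group means.

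**Figure D1:**
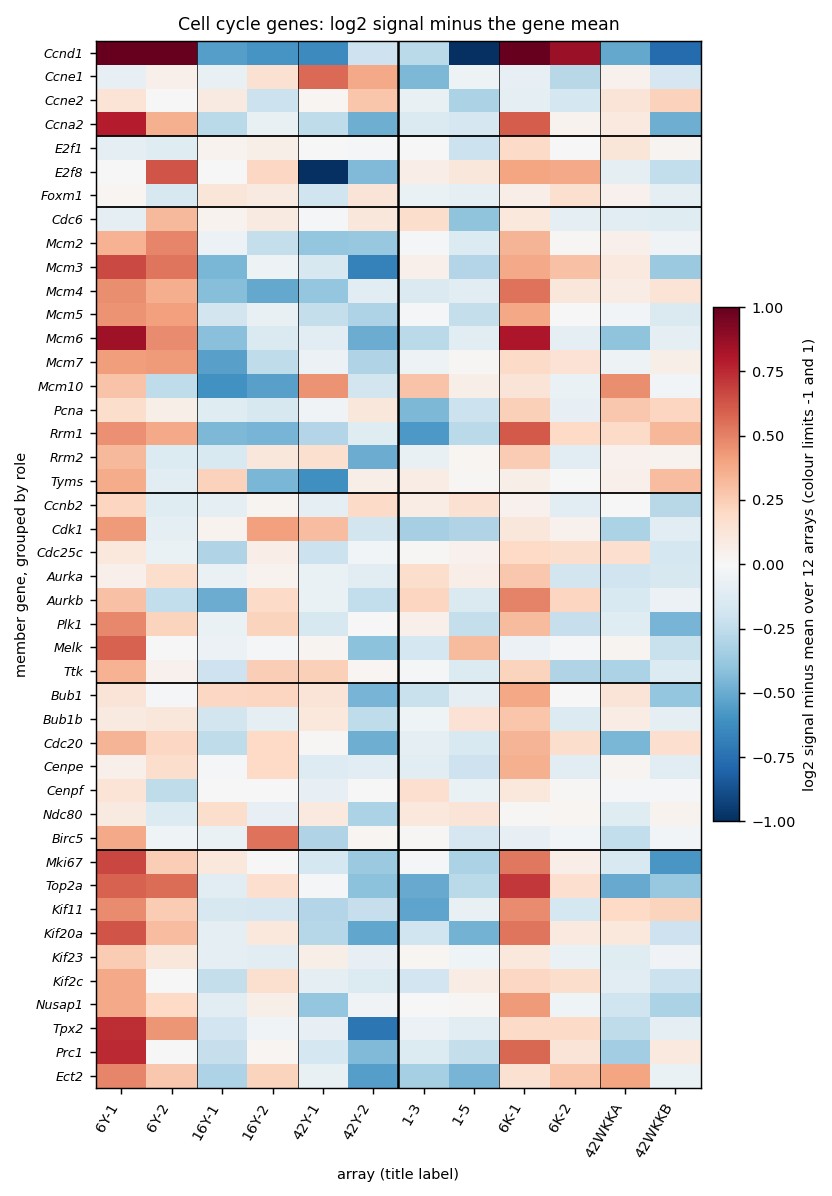
Log2 signal of each of the 44 measured members in each array, minus that member's mean over the 12 arrays (colour, limits -1 and 1), with genes down the page grouped by role and arrays across, KK-Ay left of the heavy line. The columns 6Y-1, 6Y-2 and 6K-1 are red in most rows of the replication and spindle groups. In 37 members the highest array is of 6Y or 6K, a count without its share over all clusters.

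The members' means over the 12 arrays ran between 2.35 and 7.69, with 15 members under 4 and 6 at 6 or above, while the medians of whole arrays lay between 4.74 and 4.88. Arrays of 1 group correlated at Pearson r 0.983 (42Y) to 0.991 (42WKK) across all clusters. The pooled SD of the members' median between arrays of a group was 0.139.

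Ccnd1 had the largest differences among the members. It encodes cyclin D1, which starts the passage through G1. It had log2 signals of 7.50 and 8.11 in 6Y, 5.93 and 5.89 in 16Y and 5.85 and 6.28 in 42Y. In the non-carriers it was 6.22 and 5.43 in group 1, 7.56 and 7.35 in 6K and 5.98 and 5.72 in 42WKK. The 4 arrays of 6Y and 6K lay at 7.35 or above and the other 8 at 6.28 or below. The signal in 16Y was 3.71-fold lower than in 6Y (log2 fold change -1.89, SE 0.28, adjusted p = 0.031, limma). In 42Y it was 3.34-fold lower than in 6Y (-1.74, SE 0.28, adjusted p = 0.026, limma), and in 42WKK 3.04-fold lower than in 6K (-1.61, SE 0.28, adjusted p = 0.044, limma). It was the only member called between the 42 and the 6 arrays in both KK-Ay (42Y against 6Y) and KK (42WKK against 6K). Between 6K and group 1 the difference was of the same size, 1.63 (adjusted p = 0.055, limma), and did not pass. Across genotypes at the same title number Ccnd1 differed by 0.22 in 42Y against 42WKK (95% interval -0.43 to 0.87) and by 0.35 in 6Y against 6K (-0.30 to 1.00).

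The other G1 and S phase cyclins went different ways. Ccne1 encodes cyclin E1, which activates CDK2 at the start of S phase, and had 4.81 and 4.94 in 6Y, 4.82 and 5.04 in 16Y and 5.46 and 5.27 in 42Y. It had 4.44 and 4.84 in group 1, 4.81 and 4.61 in 6K and 4.93 and 4.72 in 42WKK. Both 42Y arrays were above the 10 others. The difference was 0.53 against 42WKK (SE 0.16, adjusted p = 0.15, limma) and 0.49 against 6Y (adjusted p = 0.19, limma), so Ccne1 passed in neither. Ccna2 encodes cyclin A2, which acts in S phase and at mitotic entry, and had 5.36 and 4.93 in 6Y, 4.30 and 4.50 in 16Y and 4.32 and 4.08 in 42Y. It had 4.43 and 4.40 in group 1, 5.17 and 4.61 in 6K and 4.66 and 4.08 in 42WKK. Its 6Y arrays lay above both 16Y and both 42Y arrays, with log2 fold changes of -0.74 in 16Y and -0.94 in 42Y that did not pass (adjusted p = 0.16 and 0.11, limma). Ccne2, the second cyclin E gene, ranged only between 3.65 and 4.24 over the 12 arrays.

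Of the 3 transcription factors, E2f8 varied most. E2F8 is an atypical E2F that represses E2F target genes and promotes polyploidy in mouse liver. Its 6 KK-Ay arrays gave 6.00 and 6.63 in 6Y, 5.99 and 6.21 in 16Y and 5.00 and 5.56 in 42Y. The non-carriers had 6.07 and 6.12 in group 1, 6.40 and 6.38 in 6K and 5.91 and 5.75 in 42WKK. The 42Y arrays were the lowest of the 12, below both 42WKK arrays, and 6K the closest pair. E2f8 differed by -1.03 in 42Y against 6Y (SE 0.23, adjusted p = 0.066, limma) and by -0.55 in 42Y against 42WKK (adjusted p = 0.26, limma). E2f8 passed in no planned comparison and not in the F test (adjusted p = 0.089, limma). It was called only in the 42 arrays against the 6 arrays over both genotypes, given below. That comparison was added after the values had been seen. E2f1, an activating E2F, and Foxm1, the driver of the mitotic genes, had ranges of 0.41 and 0.36 over all arrays.

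The genes of replication licensing, the fork and nucleotide supply were the role with the most measured members, 12 of 44. In 16Y against 6Y 3 of the 12 were called lower and in 42Y against 6Y 1, where 1.2% and 1.04% of all clusters were called lower. Of the 4 measured G1 and S phase cyclins 1 was called in each. Of the 10 spindle members 1 was called in 42Y against 6Y. MCM2 to MCM7 form the helicase that is loaded at origins and unwinds DNA. Mcm2 had 5.93 and 6.07 in 6Y, 5.52 and 5.34 in 16Y and 5.19 and 5.20 in 42Y, against 5.55 and 5.44 in group 1, 5.92 and 5.59 in 6K and 5.63 and 5.54 in 42WKK. Both 42Y arrays were below all 10 others, and both 6Y arrays above them. Mcm4 had 5.44 and 5.34 in 6Y, 4.55 and 4.46 in 16Y and 4.59 and 4.86 in 42Y, against 4.83 and 4.86 in group 1, 5.52 and 5.09 in 6K and 5.05 and 5.11 in 42WKK. Mcm7 had 6.56 and 6.57 in 6Y, 5.60 and 5.89 in 16Y and 6.09 and 5.84 in 42Y, against 6.10 and 6.16 in group 1, 6.34 and 6.29 in 6K and 6.09 and 6.20 in 42WKK. In both Mcm4 and Mcm7 the 16Y arrays were on average the lowest group and the 6Y arrays the highest. Mcm5 had 5.64 and 5.61 in 6Y, 5.01 and 5.12 in 16Y and 4.96 and 4.89 in 42Y, against 5.18 and 4.96 in group 1, 5.58 and 5.19 in 6K and 5.17 and 5.05 in 42WKK. Mcm3 had 5.61 and 5.49 in 6Y, 4.49 and 4.90 in 16Y and 4.80 and 4.28 in 42Y, against 5.00 and 4.66 in group 1, 5.33 and 5.24 in 6K and 5.05 and 4.58 in 42WKK. For both, the 6Y arrays were the highest pair, and in Mcm5 the 6K-2 array barely cleared the highest of the rest. Mcm6 had 5.38 and 5.01 in 6Y, 4.11 and 4.39 in 16Y and 4.43 and 4.04 in 42Y, against 4.27 and 4.43 in group 1, 5.34 and 4.43 in 6K and 4.13 and 4.44 in 42WKK. Its 6K arrays were far apart, 1 near the 6Y level and 1 near the level of the remaining groups.

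Rrm1 encodes the large subunit of ribonucleotide reductase, which makes deoxynucleotides. The Rrm1 signals were 6.65 and 6.57 in 6Y, 5.74 and 5.73 in 16Y and 5.90 and 6.07 in 42Y, against 5.62 and 5.92 in group 1, 6.80 and 6.39 in 6K and 6.38 and 6.52 in 42WKK. It was high in 6Y, 6K and 42WKK and low in 16Y, 42Y and group 1, with no overlap between these arrays. Pcna encodes the sliding clamp of the fork and had 7.86 and 7.74 in 6Y, 7.56 and 7.53 in 16Y and 7.65 and 7.79 in 42Y, against 7.23 and 7.47 in group 1, 7.92 and 7.60 in 6K and 7.95 and 7.90 in 42WKK. Group 1 held the 2 lowest arrays. The mouse genome holds Pcna pseudogenes, so the signal of this cluster cannot be assigned to Pcna alone and its values are uncertain. Mcm10, which helps to start the fork, had 7.00 and 6.45 in 6Y, 6.11 and 6.17 in 16Y and 7.16 and 6.53 in 42Y, against 6.99 and 6.77 in group 1, 6.84 and 6.64 in 6K and 7.17 and 6.68 in 42WKK. It did not share the pattern of the other MCM genes: the 16Y arrays were the lowest pair and the remaining groups overlapped. Rrm2, Tyms and Cdc6, which encode the small reductase subunit, thymidylate synthase and a licensing factor, had adjusted F test p of 0.92, 0.73 and 0.86 (limma).

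Among the spindle and chromosome genes, Top2a, the topoisomerase that untangles sister chromatids, had 4.71 and 4.67 in 6Y, 4.01 and 4.28 in 16Y and 4.09 and 3.70 in 42Y, against 3.61 and 3.84 in group 1, 4.82 and 4.28 in 6K and 3.62 and 3.74 in 42WKK. The 4 arrays of 6Y and 6K were the highest, although 6K-2 and 16Y-2 both rounded to 4.28. Tpx2, which activates Aurora A on the spindle, had 4.89 and 4.59 in 6Y, 3.96 and 4.11 in 16Y and 4.07 and 3.43 in 42Y, against 4.09 and 4.04 in group 1, 4.35 and 4.34 in 6K and 3.90 and 4.05 in 42WKK. The 42Y arrays differed from each other more than any other pair for this gene. Mki67 encodes the proliferation antigen Ki-67, which coats mitotic chromosomes, and had 5.49 and 5.06 in 6Y, 4.92 and 4.82 in 16Y and 4.64 and 4.44 in 42Y, against 4.79 and 4.50 in group 1, 5.34 and 4.88 in 6K and 4.66 and 4.23 in 42WKK. Its 6Y arrays were above both 42Y arrays, and its 6K arrays above both 42WKK arrays, without reaching the threshold in either comparison (adjusted p = 0.15 and 0.20, limma). Kif20a, a kinesin of cytokinesis, had 4.89 and 4.58 in 6Y, 4.18 and 4.37 in 16Y and 3.98 and 3.75 in 42Y, against 4.07 and 3.80 in group 1, 4.80 and 4.36 in 6K and 4.37 and 4.06 in 42WKK. Kif11, the kinesin that pushes spindle poles apart, had 4.36 and 4.14 in 6Y, 3.73 and 3.72 in 16Y and 3.59 and 3.66 in 42Y, against 3.36 and 3.81 in group 1, 4.36 and 3.71 in 6K and 4.08 and 4.11 in 42WKK. Both kinesins had their highest group mean in 6Y. Nusap1, which binds spindle microtubules, had 3.46 and 3.27 in 6Y, 2.97 and 3.14 in 16Y and 2.69 and 3.04 in 42Y, against 3.08 and 3.09 in group 1, 3.50 and 3.03 in 6K and 2.87 and 2.75 in 42WKK. Ect2, which starts the contractile ring, had 5.25 and 5.04 in 6Y, 4.46 and 4.99 in 16Y and 4.69 and 4.22 in 42Y, against 4.44 and 4.30 in group 1, 4.92 and 5.05 in 6K and 5.17 and 4.70 in 42WKK. In Ect2 the 42WKK arrays overlapped with 6Y and 6K, and in Nusap1 42WKK was the lowest group.

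**Figure D2:**
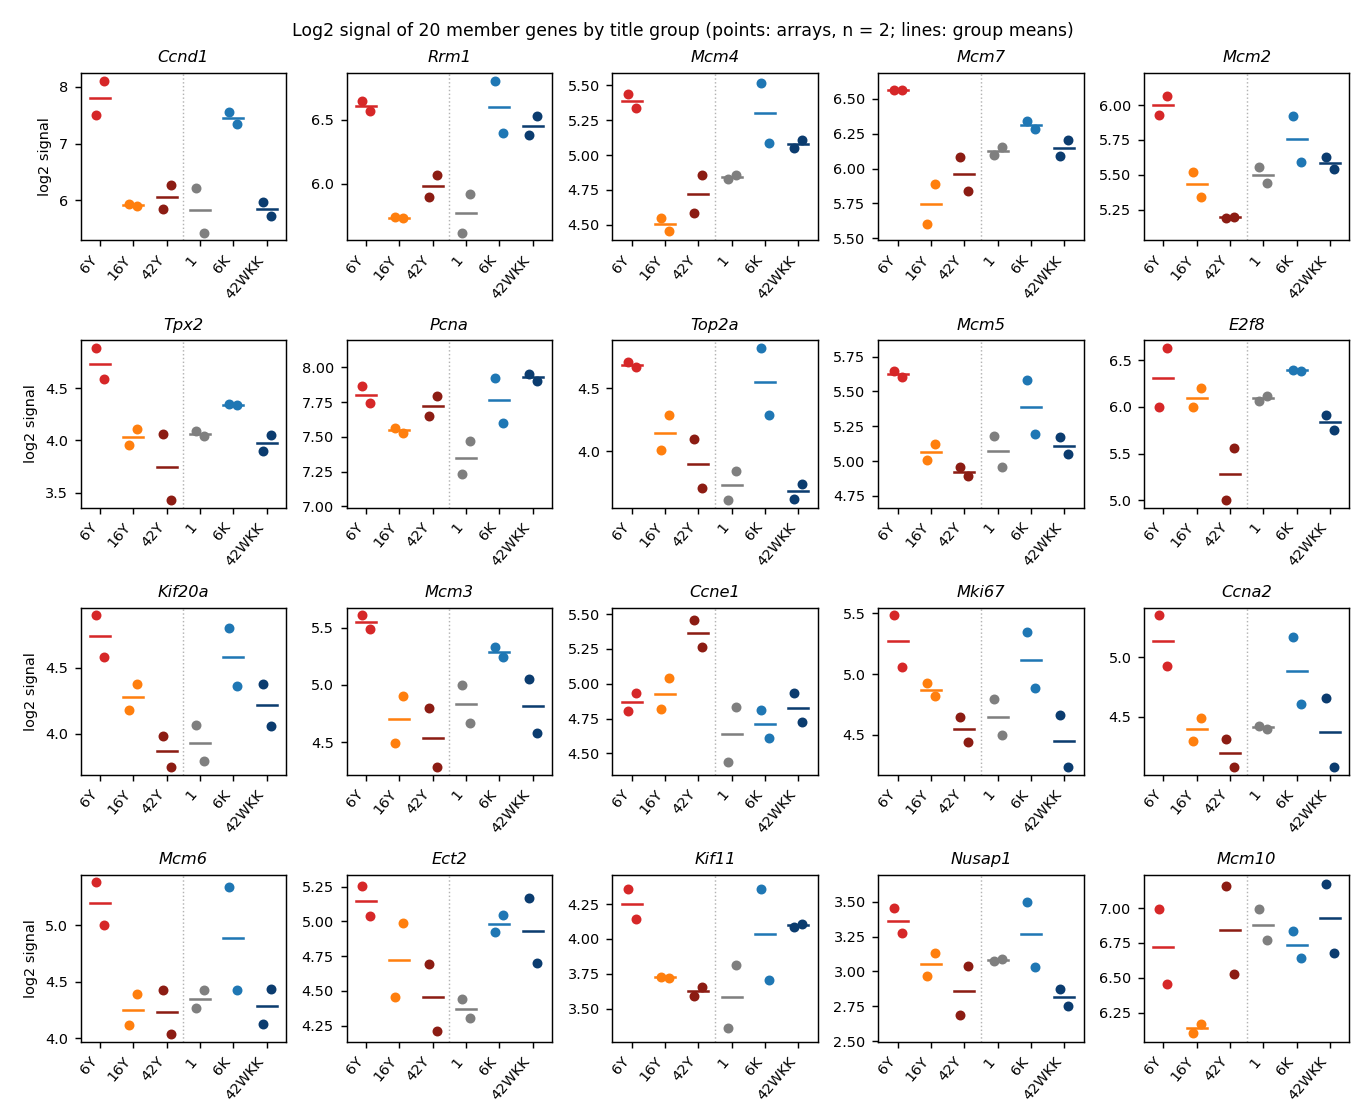
Log2 signal of the 20 members described array by array (points: single arrays, 2 in each group; lines: group means), with the KK-Ay groups 6Y, 16Y and 42Y left of the dotted line and groups 1, 6K and 42WKK right of it, on a separate y axis for each gene. Ccnd1 sits at 7.35 or above in 6Y and 6K and at 6.28 or below in the other 8 arrays, while Ccne1 is highest in 42Y.

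KK-Ay against KK livers of 42 weeks is the comparison that the methods name. No member passed in 42Y against 42WKK (limma, adjusted p under 0.05 over 35556 clusters), where 1.85% of all clusters did. At an unadjusted p under 0.05, 1 member was higher in 42Y (Ccne1) and 4 were lower, Mcm2 (log2 fold change -0.39), Rrm1 (-0.47), Mcm4 (-0.36) and E2f8 (-0.55). The adjusted p of these 5 ran between 0.15 and 0.27. The member means were lower in 42Y for 31 of 44. Their log2 fold changes had a median of -0.07, and those of all clusters 0.02. The replication group was lower in 42Y for 11 of 12 members, with a median of -0.20, and the 7 spindle checkpoint and kinetochore genes were all lower, the lowest of them at -0.09. Both 42Y arrays lay below both 42WKK arrays in 12 members and above them in 4, against 22.7% and 25.1% of all clusters. The 95% intervals of single members reached from -1.09 to 0.91, so a difference missing the threshold here may still have that size.

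No member passed in 6Y against 6K either, where 0.00281% of all clusters did, and none had an unadjusted p under 0.05. The means were higher in 6Y for 33 of 44 members, with a median of 0.10 against 0.00 over all clusters. Whether the KK-Ay against KK difference at 42 differed from that at 6 was tested as an interaction. No member passed it (0.143% of all clusters did). At an unadjusted p under 0.05, Mcm2 (-0.63) and Mcm7 (-0.44) had a lower difference at 42. Over all KK-Ay arrays against all others, the groups weighted equally, no member passed and 0.208% of all clusters did. The median over the members was 0.01. Without limma, Ccnd1 averaged 6.60 ± 0.97 in the 6 KK-Ay arrays and 6.38 ± 0.88 in the 6 others (SD, exact permutation test, two-sided, p = 0.63). Mki67 averaged 4.90 ± 0.36 and 4.74 ± 0.38 in the same arrays (exact permutation test, two-sided, p = 0.47, adjusted over the 2 genes 0.63).

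In 16Y against 6Y 4 of 44 members fell (Ccnd1, Mcm4, Rrm1 and Mcm7) and none rose, where 1.78% of all clusters passed, 1.2% lower and 0.582% higher. Mcm4 was 1.85-fold lower in 16Y (-0.89, SE 0.15, adjusted p = 0.035), Rrm1 1.83-fold (-0.87, SE 0.16, adjusted p = 0.040) and Mcm7 1.76-fold (-0.82, SE 0.13, adjusted p = 0.032, limma). The means were lower in 16Y for 36 of 44 members, with a median of -0.26 against 0.04 over all clusters. All 12 replication members were lower in 16Y, with a median of -0.58, and all 10 spindle members, with a median of -0.44. The 7 checkpoint members had a median of 0.06. Both 16Y arrays were below both 6Y arrays in 24 members and above them in 3, against 21.6% and 27.8% of all clusters. Leaving out 1 array of 6Y, 16Y or 42WKK left 0 calls in this comparison, and leaving out 1 array of group 1 left only Ccnd1.

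In 42Y against 6Y 3 members fell (Ccnd1, Mcm2 and Tpx2) and none rose, where 1.83% of all clusters passed, 1.04% lower and 0.793% higher. Mcm2 was 1.75-fold lower in 42Y (-0.80, SE 0.13, adjusted p = 0.026) and Tpx2 1.99-fold (-0.99, SE 0.20, adjusted p = 0.046, limma). Mcm5 just missed the threshold (-0.70, adjusted p = 0.050). The means were lower in 42Y for 38 of 44 members, with a median of -0.36 against 0.00 over all clusters. The replication members were lower for 11 of 12 (median -0.61) and the spindle members for 10 of 10 (median -0.69). The 8 mitotic kinases and regulators were all lower by less, with a median of -0.16. At an unadjusted p under 0.05, 18 members were lower in 42Y and only Ccne1 was higher. Both 42Y arrays were below both 6Y arrays in 24 members and above them in 2, against 21.9% and 21.0% of all clusters. Leaving out either 6Y array left 0 calls, and leaving out an array of 42Y or 42WKK left 1 call. Between 42Y and 16Y no member passed (0.399% of all clusters did). The median was -0.14 against -0.03 over all clusters, and E2f8 had the lowest value, -0.82 (adjusted p = 0.16, limma).

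In 42WKK against 6K Ccnd1 fell, as given above, and was the 1 member called, where 1.01% of all clusters passed, 0.458% lower and 0.554% higher. Leaving out any array other than 1-3 or 1-5 left 0 calls. The means were lower in 42WKK for 38 of 44 members, with a median of -0.18 against -0.02 over all clusters. Top2a (-0.88) and Mki67 (-0.67) came next and did not pass (adjusted p = 0.089 and 0.20, limma). The replication members had a median of -0.15 here and the spindle members of -0.37. Rrm1 differed by -0.15 between 42WKK and 6K (95% interval -0.51 to 0.22) and by -0.62 between 42Y and 6Y (-0.99 to -0.26). The interaction for single members, given above, did not pass for any of them.

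A comparison of title number 42 with title number 6 over both genotypes (the mean of 42Y and 42WKK against the mean of 6Y and 6K) was added after the values by array had been seen, and it shares its arrays with the comparisons above. In it 6 members fell and none rose, where 2.89% of all clusters passed, 1.61% lower and 1.28% higher. Ccnd1 was 3.19-fold lower in the 42 arrays (-1.67, SE 0.20, adjusted p = 0.0061). The other 5 were Top2a (-0.83, SE 0.14, adjusted p = 0.022), E2f8 (-0.80, SE 0.16, adjusted p = 0.040), Tpx2 (-0.68, SE 0.14, adjusted p = 0.040), Mcm2 (-0.49, SE 0.093, adjusted p = 0.032) and Mcm5 (-0.49, SE 0.10, adjusted p = 0.041, limma). Leaving out 1 array left between 1 and 6 calls, and Ccnd1 was called each time. The median over the members was -0.28, against -0.01 over all clusters, and 39 of 44 means were lower in the 42 arrays.

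**Figure D3:**
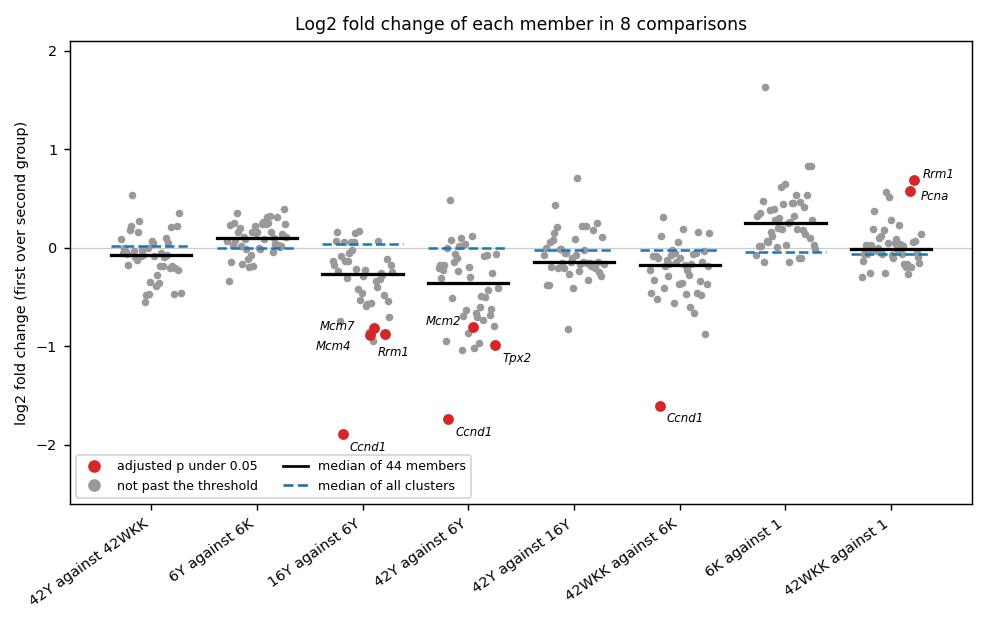
Log2 fold change (first over second group named) of each of the 44 members in 8 comparisons, with red points for members at an adjusted p under 0.05 (limma), black lines for the median of the members and dashed lines for the median of all clusters. The black line lies at -0.26 in 16Y against 6Y, -0.36 in 42Y against 6Y and -0.18 in 42WKK against 6K, below the dashed line each time, and at 0.25 in 6K against 1.

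In 6K against group 1 no member passed (0.405% of all clusters did), with means higher in 6K for 38 of 44 members and a median of 0.25 against -0.04 over all clusters. Both 6K arrays were above both group 1 arrays in 25 members, against 22.4% of all clusters, and below them in 2, against 27.9%. Rrm1 (0.83, adjusted p = 0.064) and Top2a (0.83, adjusted p = 0.10) followed Ccnd1 in size (limma). In 42WKK against group 1 2 of 44 members rose, where 5.71% of all clusters passed, 3.67% higher and 2.04% lower. The count is near the share called higher over all clusters. The members were Rrm1, 1.61-fold (0.68, SE 0.16, adjusted p = 0.045), and Pcna, 1.49-fold (0.58, SE 0.14, adjusted p = 0.046, limma). Both 42WKK arrays were above both group 1 arrays in 9 members and below them in 6, against 22.8% and 33.9% of all clusters. A second Pcna cluster with nearly the same values did not pass (0.49, adjusted p = 0.071, limma), so the Pcna call depends on the cluster taken. The median over the members was -0.01, and both calls were lost without any 1 of the arrays outside 6K. Over the 6 groups together the F test called 4 members, Ccnd1, Rrm1, Mcm4 and Mcm7 (adjusted p = 0.020, 0.032, 0.044 and 0.047, limma), where 5.43% of all clusters passed.

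The 24 members not described array by array hold no call of the planned comparisons, because the rule described every member called there. None of the 24 passed in the added comparison either. In 42Y against 6Y their differences ran between -0.69 (Prc1, which bundles microtubules of the spindle midzone) and 0.10 (E2f1), and 20 of 24 were lower in 42Y. In 42Y against 42WKK they ran between -0.46 (Tyms) and 0.36 (Ttk, a mitotic kinase), with 16 of 24 lower. Cdk1, the kinase of mitotic entry, had 4.96 and 4.47 in 42Y, 5.08 and 4.55 in 6Y and 4.34 and 4.54 in 42WKK, and the arrays of 42Y and 6Y overlapped. The kinetochore genes Bub1, Bub1b, Cenpe, Cenpf and Ndc80 had a range over the 12 arrays between 0.42 (Cenpf) and 0.85 (Bub1).

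Other genes of the same processes, in lists that do not hold the members, were counted the same way. Of 51 other mitosis and spindle genes, 4 fell in 42Y against 6Y, where the list's median was -0.27. None passed in 16Y against 6Y (median -0.21) or in 42WKK against 6K (median -0.23), and the 6 called in the 42 against the 6 arrays all fell. Hmmr, a spindle assembly factor, had 2.14 and 2.06 in 42Y and 2.97 and 3.05 in 6Y (-0.91, adjusted p = 0.018, limma). Kif18a, a kinesin that aligns chromosomes, (-0.80, adjusted p = 0.033) and Cks2, a CDK subunit (-0.73, adjusted p = 0.042), fell as well in 42Y. Cks2 was also lower over all KK-Ay arrays than over the others (-0.56, adjusted p = 0.044, limma). Smc4, a condensin subunit, rose in 42WKK against group 1 (0.64, adjusted p = 0.043) and differed by -0.64 in 42Y against 6Y (adjusted p = 0.077).

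Of 46 other replication genes, 3 fell in 16Y against 6Y (median -0.26) and 2 in 42Y against 6Y (median -0.19), and none passed in 42Y against 42WKK or in 42WKK against 6K. Prim1, the catalytic subunit of primase, had 3.63 and 3.77 in 16Y and 5.47 and 5.31 in 6Y (-1.69, adjusted p = 0.033, limma). Rfc4, a subunit of the clamp loader, fell in 16Y (-0.93) and in 42Y (-0.90) against 6Y (adjusted p = 0.041 and 0.042). Pole, the leading strand polymerase, fell in 42Y against 6Y (-0.88, adjusted p = 0.026). Fen1, which trims Okazaki fragments, passed the F test (adjusted p = 0.037) with its lowest arrays in 16Y, at 4.33 and 4.55. Of the other S phase genes, 3 rose in 42WKK against group 1, Rfc4 among them (0.76, adjusted p = 0.042, limma).

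Of 33 other cyclins, kinases, inhibitors and E2F or RB regulators, Cdkn2c moved with the members. It encodes p18, an inhibitor of CDK4 and CDK6. Its signals were 5.20 and 4.93 in 6Y, 4.41 and 4.13 in 16Y, and 4.17 and 4.13 in 42Y. They were 4.06 and 4.22 in group 1, 5.24 and 5.13 in 6K and 4.13 and 4.34 in 42WKK. It fell in 16Y and 42Y against 6Y (-0.79 and -0.91, adjusted p = 0.039 and 0.023) and in 42WKK against 6K (-0.94, adjusted p = 0.029), and rose in 6K against group 1 (1.04, adjusted p = 0.040, limma). It was the 1 gene of its list called in each of these comparisons, and the list's medians there lay between -0.04 and 0.07. Ezh2, a histone methyltransferase, fell in the 42 against the 6 arrays (-0.54, adjusted p = 0.017). Skp2, which marks p27 for degradation, did not pass the F test (adjusted p = 0.062). E2f5, a repressive E2F, rose in 42WKK against group 1 (0.53, adjusted p = 0.033).

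Since Cdkn1a had no value of its own, 17 other target genes of p53 were read. In 42Y against 42WKK 2 of them rose. Btg2, an antiproliferative transcription cofactor, had 9.19 and 7.88 in 42Y and 5.77 and 6.20 in 42WKK (2.55, SE 0.36, adjusted p = 0.019, limma). Gadd45a, the second, was named because only 2 genes passed, and it rose by 2.32 (SE 0.44, adjusted p = 0.043). The list's median was 0.10, against 0.02 over all clusters. Btg2 also rose in 42Y against 6Y (2.86, adjusted p = 0.011), and the 2 arrays of 42Y differed by more than 1 log2 unit. Ccng1, which encodes cyclin G1, rose in 42WKK against group 1 (0.95, adjusted p = 0.016), as did Plk2, a polo-like kinase (0.62, adjusted p = 0.047). Ei24, a membrane protein, did not pass the F test (adjusted p = 0.065).

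Among the markers of other liver cells, some endothelial and stellate genes passed in comparisons where members did. In bulk liver fewer cells of a type and less RNA per cell cannot be told apart. Over 9 endothelial markers the medians were 7.92 and 8.33 in 6Y, 7.09 and 7.24 in 16Y, 7.62 and 7.51 in 42Y, 7.02 and 6.76 in group 1, 7.88 and 8.07 in 6K, and 7.72 and 7.67 in 42WKK. In 16Y against 6Y 4 of the 9 fell (Kdr, Cdh5, Clec4g and Lyve1, by -0.92 to -1.36) with a median of -0.82, and in 42Y against 6Y none passed (median -0.47). In 42WKK against 6K none passed either (median -0.30), and 42WKK had endothelial medians above those of 16Y, 42Y and group 1, while the members' medians in 42WKK were among the lowest. In 6K against group 1 3 of the 9 rose (Kdr, Cdh5 and Clec4g), with a median of 0.89. The same 3 genes rose in 42WKK against group 1 (1.01, 0.71 and 1.09, median of the list 0.49). In that comparison Rrm1 and the Pcna cluster used here passed. On the scale of the log2 of their summed linear signal, the 9 markers reached 10.28 and 10.50 in 16Y, 11.06 and 11.46 in 6Y, and between 10.06 and 11.23 over the other 8 arrays. Over 11 stellate cell markers the medians were 6.69 and 7.25 in 6Y, 5.95 and 6.18 in 16Y, 6.35 and 5.74 in 42Y, 6.12 and 6.30 in group 1, 6.79 and 6.61 in 6K, and 6.03 and 5.96 in 42WKK. Its collagen genes Col3a1 (-1.44), Col1a2 (-1.08) and Col1a1 (-0.86) fell in 42Y against 6Y (adjusted p = 0.012 to 0.041, limma). Col3a1 also fell in 16Y against 6Y (-1.17, adjusted p = 0.032). In the 42 against the 6 arrays, where 6 members fell, these 3 collagen genes fell as well (-0.74 to -1.17). They were the only ones of the 11 stellate markers called there, and the list's median was -0.24. In 42WKK against 6K none of the 11 passed (median -0.22). Of 7 fetal liver and growth genes, 1 fell in 16Y and in 42Y against 6Y, the imprinted gene Mest (-1.50 and -1.48, adjusted p = 0.014 and 0.0069, limma), and it also fell in the 42 against the 6 arrays (-0.98). The medians of that list were 0.02 in 16Y against 6Y and -0.40 in 42Y against 6Y. Gpc3 differed by -0.60 and -0.62 in these comparisons and did not pass (adjusted p = 0.075 and 0.077, limma). In 16Y against 6Y, Peg3, Afp, Igf2 and Plagl1 differed by 0.21, 0.17, 0.09 and 0.02, and Dlk1 by -0.10. In 42WKK against group 1 Peg3 fell (-0.78) and the stellate list's Rgs5 rose (0.69, adjusted p = 0.034 and 0.021, limma). None of the 11 hepatocyte, 8 T cell, 8 erythroid, 10 Kupffer cell and monocyte or 5 cholangiocyte markers passed in any comparison. Of 7 B and plasma cell markers, 1 (Jchain) rose in 42Y against 6Y and in 42WKK against 6K. Jchain also rose in the 42 against the 6 arrays (1.89, adjusted p = 0.0033, limma). Of 11 neutrophil markers, 1 (Retnlg) rose in 42Y against 42WKK, 2 (Retnlg and Cxcr2) in 42Y against 6Y and 1 (Retnlg) in 42Y against 16Y. Retnlg also rose over all KK-Ay arrays against the others (0.87, adjusted p = 0.030, limma). Cxcr2 also rose in the 42 against the 6 arrays (0.94, adjusted p = 0.024, limma). The part of endothelial and stellate cells in the members' differences was not tested.

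**Figure D4:**
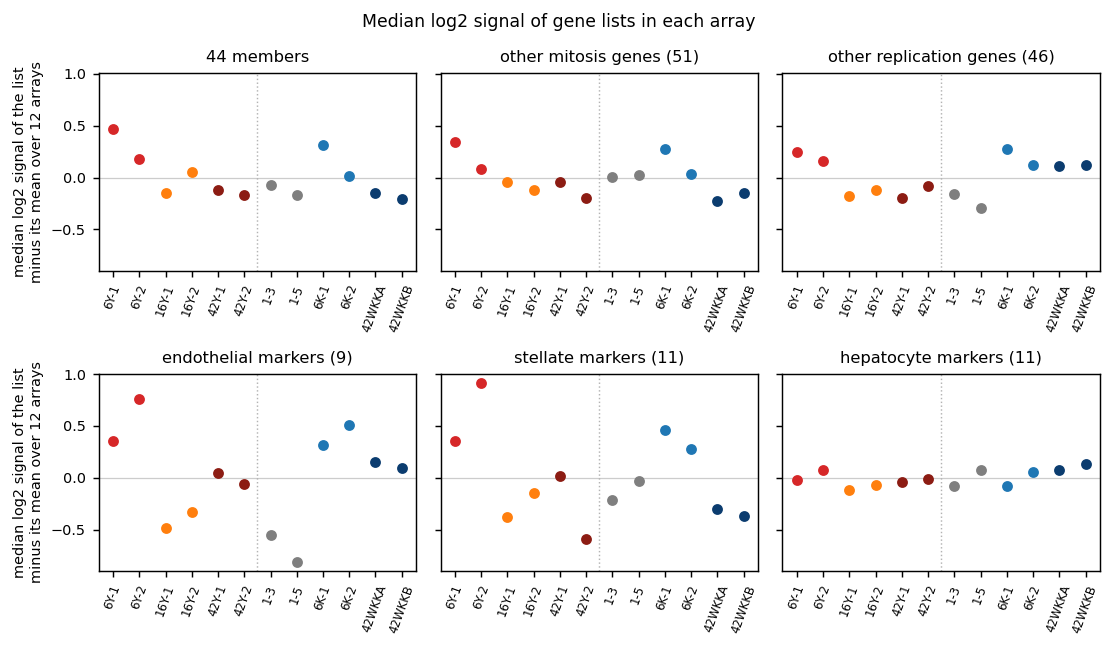
Median log2 signal of 6 gene lists in each array, minus that list's mean over the 12 arrays, with KK-Ay arrays left of the dotted line. The endothelial and stellate panels share the high 6Y and 6K points with the members, and the hepatocyte panel has the smallest spread of the 6. Endothelial markers are low in 16Y and group 1 (medians of 6.76 to 7.24 before the mean is subtracted).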

How the data were processed

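RNA of 12 mouse arrays was measured on Affymetrix arrays. For each transcript cluster the authors deposited a log2 value from Affymetrix Expression Console (submitters' processing notes), run with RMA-sketch (methods). The methods name an exon array, whereas the cluster identifiers belong to the mouse gene array, and no source used here gives a genome build. Scale and direction are those of a log2 signal, not centred by gene.

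Groups came from the array titles. Means of the 6 groups were fitted in limma 3.58.1 (R 4.3.3; lmFit, eBayes without trend) over all 12 arrays, with Benjamini-Hochberg adjustment over 35556 clusters and a threshold of 0.05. There were 10 comparisons and an F test, and 1 comparison was added after seeing the values. Symbols of 21698 clusters were updated by gene identifier (GRCm38.p6, names only). One symbol was carried by 21789 clusters, several by 1621 and none by 12146. The fit used every array and imputed no value. The script was tested on simulated data.

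Values in every array are given for members called in any comparison or the F test, filled up to 20 by the smallest F test p. Up to 4 genes by the same p are named from each other list. An exact permutation test planned for Cdkn1a could not be run, so it covered 2 genes. Members, lists and rules were chosen with earlier results of these data known, so no call on them is independent support. Their other lists held mitosis genes, replication genes, cell cycle regulators and p53 targets, and markers of hepatocytes, T cells, B and plasma cells, neutrophils, erythroid cells, Kupffer cells and monocytes, stellate cells, endothelial cells, cholangiocytes and fetal liver. Median centring, quantile normalization, a mean log2 filter at 6, clusters with 1 symbol, a variance trend, a replicate block, smaller fits and leaving out single arrays were tried. The number of arrays limits the precision.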

Additional observations from a re-analysis of the deposited data

How the results depend on the processing

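No named member call changed sign in 290 alternatives of 16 calls. Many of these alternatives leave the compared group means unchanged, so the sign could not change there. The calls themselves changed with the setting. The filter at a mean log2 of 6 kept only 6 of the 44 members, so its counts below are out of 6. In 16Y against 6Y the 4 members called became 8 with clusters of 1 symbol only, 3 with a mean log2 of at least 6, 3 without both 6K arrays, and 0 with only the 4 arrays of the comparison or with 8 arrays. In 42Y against 6Y the 3 became 12 with 1-symbol clusters, 6 with a variance trend, 4 with the filter at 6 or without both 6K arrays, and 1 with 8 arrays. In 42WKK against 6K the 1 became 0 after median centring and 2 with 1-symbol clusters. In 6K against group 1 the 0 became 2 after median centring, 2 with the filter at 6, 2 with a trend and 3 with 1-symbol clusters. In 42WKK against group 1 the 2 became 1 after quantile normalization. The F test's 4 became 6 after median centring, 3 after quantile normalization, 5 with the filter, 11 with 1-symbol clusters and 6 with a trend. The 6 of the 42 against the 6 arrays became 4 after median centring, 4 with the filter, 5 after quantile normalization, 14 with 1-symbol clusters and 10 with a trend. By construction the 1-symbol and filter fits test fewer clusters and the small fits use fewer arrays. The cause of the changed counts was not tested. Leaving out 1 array left 0 to 5 members in 16Y against 6Y, 0 to 4 in 42Y against 6Y, 0 to 1 in 42WKK against 6K, 0 to 2 in 42WKK against group 1, 0 to 4 in the F test and 1 to 6 in the added comparison. Ccnd1 in the added comparison was called in all 17 alternatives. It was lost in 4 of 20 in 42Y against 6Y, in 9 of 21 in 16Y against 6Y and in 11 of 17 in 42WKK against 6K. In 42Y against 42WKK no member passed under any limma alternative, and a one-way ANOVA on its 4 arrays gave 2 at an unadjusted p under 0.05 and 0 after adjustment.

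The replicate numbers 1 and 2 are shared by 6K, 6Y, 16Y and 42Y, but same-numbered arrays did not deviate together (correlations of -0.04 to 0.05), so the numbers were not taken as pairs. With the replicate block on these 8 arrays 0 members were called in 6Y against 6K, 16Y against 6Y, 42Y against 6Y and 42Y against 16Y, against 0, 0, 1 and 0 in the same fit without the block.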
